A study of Mus musculus with 9 samples.

Results

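The complement components and receptors described here are 9 genes of the 55655 rows in each deposited table, found by matching Ensembl identifiers to gene symbols. They are the 3 chains of C1q (C1qa, C1qb and C1qc), the central component C3, the alternative pathway genes Cfb and Cfp, and the anaphylatoxin receptors C3ar1, C5ar1 and C5ar2. In GENCODE release M21 the C1q genes lie on chromosome 4, C3 and Cfb on chromosome 17, Cfp on chromosome X, C3ar1 on chromosome 6 and both C5a receptor genes on chromosome 7. Complement is a protein cascade that labels microbes and damaged cells for uptake and recruits phagocytes. C1q is the recognition molecule of the classical pathway, C3 is the point at which the pathways meet, factor B (Cfb) and properdin (Cfp) build and stabilize the alternative pathway convertase, and the receptors sense the small peptides released when C3 and C5 are cleaved. Most plasma complement comes from the liver, but macrophages are a known local source of C1q and properdin, and raise C3 and factor B after inflammatory stimuli.

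RNA was sequenced from bone marrow-derived macrophages (BMDMs) of wild-type C57BL/6 mice aged 6 to 8 weeks, taken from femur and tibia and grown for 7 days with 10 ng/mL of the growth factor M-CSF. M0 macrophages received nothing further. M1 macrophages were induced with LPS, a bacterial cell wall component, and IFN-γ for 12 hours, and the M1 + PBM group was induced in the same way and also irradiated with a near-infrared laser (photobiomodulation, PBM). Each group held 3 libraries, and the M0 libraries stood in a table of their own. Values are FPKM, which scale fragments to transcript length and library depth, so levels of different genes can be set side by side.

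All 7 macrophage markers checked, among them Adgre1, Csf1r and Cd68, were at an FPKM of at least 1 in every library, with a summed FPKM between 5263 and 10143. The M1 markers Nos2, Il6 and Cd86 together reached 0.758 to 3.99 in M0, 139 to 325 in M1 and 78.2 to 105 in M1 + PBM. The 8 neutrophil markers summed to 1.42 to 2.34 FPKM in M0, 8.87 to 28.0 in M1 and 6.41 to 15.0 in M1 + PBM. Most of that sum was S100a8, at 1.13 to 2.11 FPKM in M0, 6.9 to 27.2 in M1 and 4.94 to 14.5 in M1 + PBM, while S100a9 and Ly6g were listed at 0 in all 9 libraries. The part of these transcripts in the differences from M0 was not tested. M0 replicate 3 stood apart from the other M0 libraries. Its 5 stromal markers summed to an FPKM of 187, against 6.86 and 5.48 in replicates 1 and 2, and its M1 marker sum was the 3.99 given above. The stromal sum was 12.7 to 14.4 in M1 and 6.22 to 27.2 in M1 + PBM. The part of stromal transcripts in ratios given without M0 replicate 3 was not tested. M1 replicate 2 had a sum of 18.8 over 10 hepatocyte markers, with Alb at 9.01, where the other 8 libraries lay between 0.756 and 3.61 and listed Alb at 0.

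The 9 genes spanned mean levels from 0.0138 to 814 FPKM (plot of members by library). C1qb was the most abundant in each group, and its mean was 814 ± 236 FPKM for M0, 720 ± 242 for M1 and 779 ± 153 for M1 + PBM (SD, n = 3). C5ar2 was the least abundant in each group. The order in M0 ran C1qb, C3ar1, C1qc, Cfp, C1qa, C5ar1, C3, Cfb and C5ar2, and all neighbours from C3ar1 to C3 overlapped in their range over libraries. In M1 the order was C1qb, Cfb, C3, Cfp, C3ar1, C1qc, C1qa, C5ar1 and C5ar2, so that Cfb moved from rank 8 to rank 2 and C3 from rank 7 to rank 3. Cfb overlapped with C1qb there, and so did Cfp with C3ar1, C3ar1 with C1qc and C1qc with C1qa. The order in M1 + PBM was the same except that C3ar1 and Cfp, which overlapped, changed places.

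**Figure D1:**
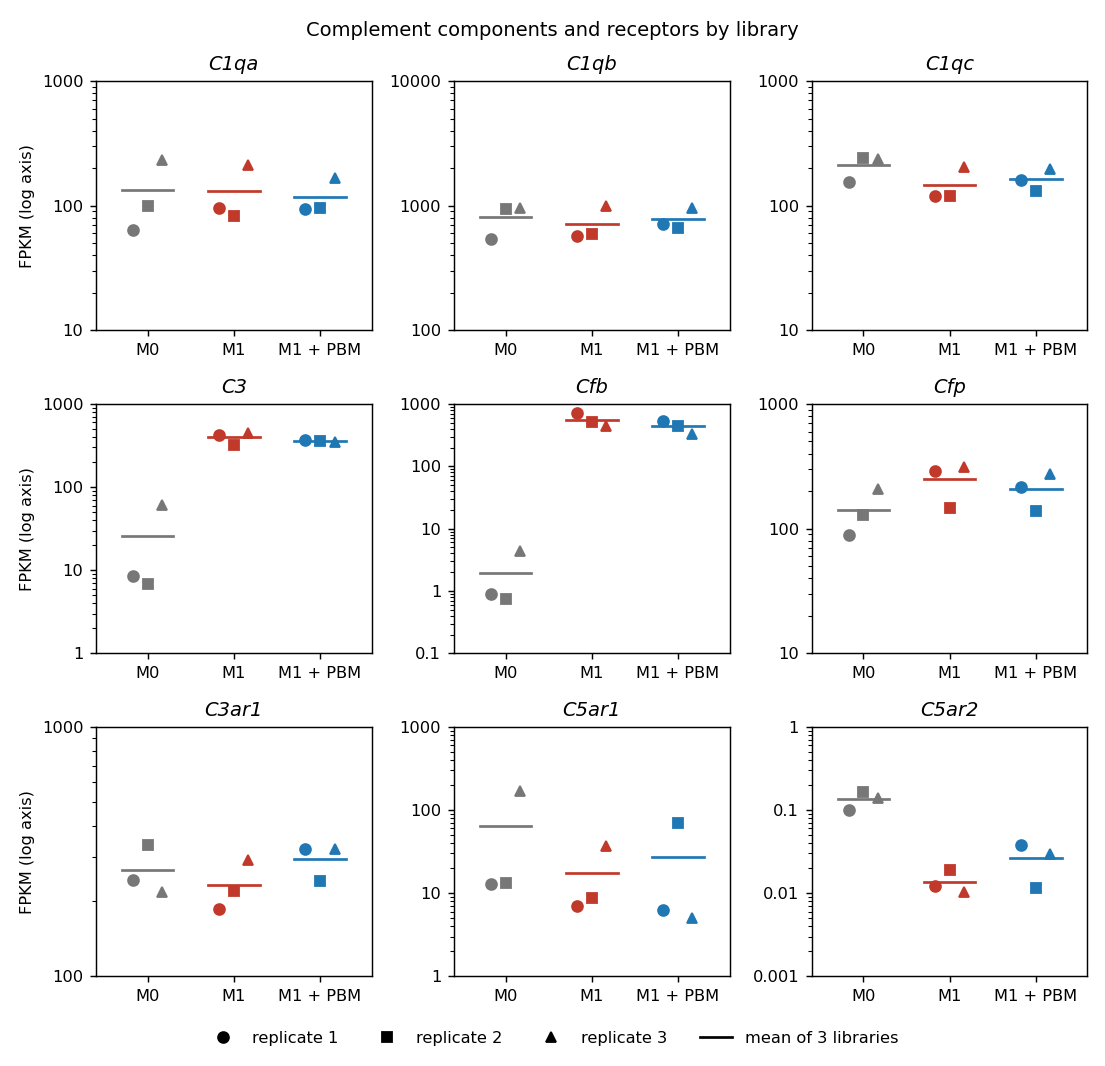
FPKM of the 9 complement genes in each library on log axes, with symbols for the replicate number and a line at the mean of the 3 libraries of M0 (grey), M1 (red) and M1 + PBM (blue). C3 and Cfb lie far higher in all M1 and M1 + PBM libraries than in M0, while M1 and M1 + PBM overlap for each gene.

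The C1q chains were present at high levels before any stimulus and overlapped between all 3 groups. C1qb encodes the B chain. It read 542, 934 and 967 FPKM in M0 replicates 1 to 3, 570.2, 589.7 and 999 in M1, and 716, 667 and 953 in M1 + PBM. Within each group the highest value was that of replicate 3. C1qa, the A chain, had 64.5, 99.5 and 235 FPKM in M0, 95.9, 82.9 and 213 in M1, and 93.5, 95.2 and 167 in M1 + PBM. Again replicate 3 was highest in each group, by more than the difference between any 2 group means. The M1 mean of C1qa was 0.984 times the M0 mean and 1.59 times the mean of M0 replicates 1 and 2, and for M1 + PBM these ratios were 0.891 and 1.44, with overlap in each case. C1qc, the C chain, stood at 155, 241 and 239 FPKM in M0, 120.1, 119.96 and 204 in M1, and 162, 132 and 196 in M1 + PBM. The values of replicates 1 and 2 in M1 lay below every M0 value, and replicate 3 did not.

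Although the 3 chains assemble in equal number into the C1q protein, their transcript levels were unequal in every library (plot of C1q chains). C1qb made up 67.1% to 74.6% of the summed FPKM of the 3 chains, C1qc 14.4% to 20.3% and C1qa 7.8% to 16.3%. The ratio of C1qb to C1qc lay between 3.5 and 5.07. It was 3.5, 3.87 and 4.04 in M0, 4.75, 4.92 and 4.9 in M1, and 4.43, 5.07 and 4.86 in M1 + PBM. All M0 ratios were below all others, and M1 and M1 + PBM overlapped. The ratio of C1qa to C1qc varied more, at 0.416, 0.412 and 0.981 in M0, 0.799, 0.691 and 1.05 in M1, and 0.579, 0.723 and 0.849 in M1 + PBM, and was highest in replicate 3 of each group. C1qa (ENSMUSG00000036887) and C1qb (ENSMUSG00000036905) each have a single annotated transcript, while C1qc has 2, of 946 and 1203 bases. The part of transcript choice in the ratios to C1qc was not tested. How many other gene pairs have ratios that separate M0 in this way was not counted.

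**Figure D2:**
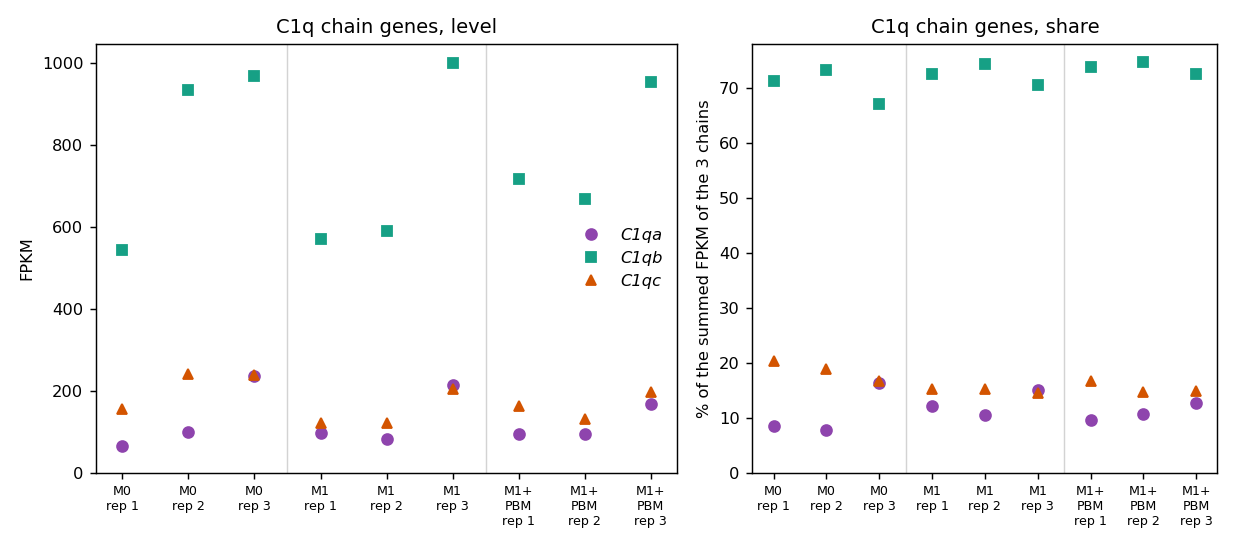
Left, FPKM of C1qa, C1qb and C1qc in each of the 9 libraries. Right, the share of each chain gene in the summed FPKM of the 3, where C1qb takes 67.1% to 74.6% and the ranking of C1qb over the other chains holds in every library.

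The promoter sequences of C1qb and C1qc are shown because the ratio of these genes of 1 locus varied least among the chains. They are the 250 bases before the start of each gene in RefSeq, on the minus strand of GRCm38.p6, at chr4:136886201-136886450 for C1qb and chr4:136892915-136893164 for C1qc. Capitals mark the letters GAGGAA, a core bound by the myeloid factor PU.1, searched on both strands.
C1qb: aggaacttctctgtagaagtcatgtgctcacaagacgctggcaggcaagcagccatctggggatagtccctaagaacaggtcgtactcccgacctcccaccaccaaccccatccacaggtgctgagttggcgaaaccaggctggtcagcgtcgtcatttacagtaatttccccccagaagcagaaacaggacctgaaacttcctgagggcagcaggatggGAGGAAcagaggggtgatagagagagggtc
C1qc: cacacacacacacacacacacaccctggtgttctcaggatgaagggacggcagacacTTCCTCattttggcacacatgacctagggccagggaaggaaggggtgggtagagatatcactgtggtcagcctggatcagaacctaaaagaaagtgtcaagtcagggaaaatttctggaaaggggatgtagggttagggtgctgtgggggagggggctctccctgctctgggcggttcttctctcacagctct
The match in C1qb lay 30 to 25 bases before the start, and that in C1qc lay on the other strand, as TTCCTC, 193 to 188 bases before the start. Since 23.3% of 32851 promoter windows of this length held GAGGAA, a match is a description of the letters and no evidence of binding. No promoter entry was found for C1qa.

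C3 and Cfb had the largest differences between M0 and the stimulated groups. C3 (ENSMUSG00000024164), whose cleavage product marks targets for uptake, read 8.44, 6.79 and 61.1 FPKM in M0, 421, 322 and 443 in M1, and 372, 363 and 350.3 in M1 + PBM. Every M1 and M1 + PBM library was above every M0 library. The M1 mean of 395 ± 64.2 FPKM (SD, n = 3) was 15.5-fold the M0 mean of 25.4 ± 30.9, and 51.9-fold the mean of M0 replicates 1 and 2 (7.61 ± 1.17, n = 2). For M1 + PBM these ratios were 14.2 and 47.5. The M1 + PBM libraries were close to each other, with an SD of 10.8 FPKM around a mean of 362.

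Cfb (ENSMUSG00000090231), the protease subunit of the alternative pathway convertase, was low in M0, at 0.891, 0.731 and 4.31 FPKM, and reached 711, 517 and 444 in M1 and 537, 446 and 324 in M1 + PBM. No library of M0 came near the other groups. The mean of 557 ± 138 FPKM in M1 was 282-fold the M0 mean of 1.98 ± 2.02, or 687-fold without M0 replicate 3, and the mean of 436 ± 107 in M1 + PBM was 220.5-fold the M0 mean, or 537-fold without that library. Gm20547, a gene model overlapping Cfb, had an FPKM of at most 0.263 in any library, and whether the authors' counting used strand is not given in the sources used here.

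The ratio of C3 to Cfb, which act together in the alternative pathway convertase, also differed between M0 and the stimulated groups. C3 was 9.47, 9.29 and 14.2 times as high as Cfb in M0 replicates 1 to 3. It was 0.592, 0.623 and 0.998 times as high in M1 and 0.692, 0.814 and 1.08 times as high in M1 + PBM. All M0 ratios were above all others, and M1 and M1 + PBM overlapped.

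The 250 bases before the start of C3 in RefSeq, at chr17:57228137-57228386 on the minus strand of GRCm38.p6, are shown because C3 is one of the members that were much higher in M1 than in M0. Capitals mark the letters TTGCNNAA, a form of the C/EBP motif of inflammatory and acute phase genes, searched on both strands.
C3: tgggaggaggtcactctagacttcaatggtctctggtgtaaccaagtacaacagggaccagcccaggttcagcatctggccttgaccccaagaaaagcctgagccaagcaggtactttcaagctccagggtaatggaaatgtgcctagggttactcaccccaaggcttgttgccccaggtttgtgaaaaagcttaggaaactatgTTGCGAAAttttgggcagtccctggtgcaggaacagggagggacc
The match, TTGCGAAA, lay 45 to 38 bases before the start, and 9.56% of the 32851 promoter windows held such a match. It is a description of the letters and no evidence of binding. A window of C5ar2, the least abundant member, also matched, 210 to 203 and 166 to 159 bases before the start. The letters TTCNNNGAA of the gamma-activated site were searched too. No window of a member with an entry held them, where 7.02% of all windows did. A promoter entry was found for 7 of the 9 members. No entry was found for Cfb.

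Cfp, which encodes properdin, the stabilizer of the alternative pathway convertase, was already well expressed in M0. Its values were 89.5, 128 and 206 FPKM in M0, 289, 146 and 312 in M1, and 216, 138 and 275 in M1 + PBM. The groups overlapped through M0 replicate 3 and through replicate 2 of the stimulated groups. The M1 mean was 1.76-fold the M0 mean, and without M0 replicate 3 it was 2.29-fold, with all M1 libraries above both M0 libraries. For M1 + PBM the ratio was 1.49 with overlap, and 1.93 without M0 replicate 3, again with no overlap.

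The C3a receptor gene C3ar1 was expressed at similar levels with and without stimulation, at 243, 337 and 218 FPKM in M0, 185, 220.2 and 292 in M1, and 324, 240 and 324 in M1 + PBM. All 3 groups overlapped. C5ar1, the main receptor of C5a, varied more between libraries of a group than between groups. It had 12.9, 13.2 and 167 FPKM in M0, 6.91, 8.68 and 37.1 in M1, and 6.23, 70.2 and 5.02 in M1 + PBM. A single library in each group held the high value, replicate 3 in M0 and M1 and replicate 2 in M1 + PBM. The M1 mean was 0.272 times the M0 mean, but 1.34 times the mean of M0 replicates 1 and 2. For M1 + PBM these ratios were 0.421 and 2.08. C3ar1 was 1.3 to 64.6 times as high as C5ar1, the lowest ratio being that of M0 replicate 3.

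C5ar2, which encodes a second C5a receptor that does not couple to G proteins, was near the limit of detection. It was at 0.101, 0.166 and 0.138 FPKM in M0, 0.0122, 0.0188 and 0.0104 in M1, and 0.0378, 0.0115 and 0.0292 in M1 + PBM. The lowest M0 value was above the highest of the other groups. From the estimated depth, these values stood for at most 10.7 to 19.6 fragments per M0 library, 1.12 to 2.35 in M1 and 1.65 to 4.48 in M1 + PBM. In M1 this was under the 3 fragments taken as the floor, so no fold is given.

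The M0 libraries may have been normalized apart from the others, so these differences were described and not tested. Over the 13915 rows that reached 1 FPKM in 3 or more of the 9 libraries, the median log2 difference of M1 from M0 was -0.34, and that of M1 + PBM from M0 was -0.27. Relative to this shift, C3 lay 4.9 and Cfb 8.06 log2 units higher in M1 than in M0, and 4.72 and 7.64 higher in M1 + PBM. The signs for C3, Cfb, Cfp and C5ar1 were the same under every scaling tried, and those of C1qa, C1qb and C3ar1 in both comparisons, and of C1qc for M1 + PBM against M0, turned with the scaling. C3 and Cfb were above M0 without overlap, as 15.6% of all rows were in M1 and 15.9% in M1 + PBM. C5ar2 was below M0 without overlap, as 50.6% and 46.2% of all rows were, and was itself under the minimum. Of the 8 members kept by this minimum, 2 (C3 and Cfb) were higher in M1 without overlap and by a log2 difference of at least 1, where 7.81% of all rows were, and none was lower, where 13.7% were. Against M0, M1 + PBM gave the same 2 genes, with 7.13% of all rows higher and 10.3% lower. Both comparisons use the same M0 libraries.

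Within M0, replicate 3 differed from the other libraries for some members and not others. C5ar1 was 12.8 times, C3 8.03 times, Cfb 5.31 times and C1qa 2.86 times the mean of replicates 1 and 2. C1qb, C1qc, Cfp, C3ar1 and C5ar2 were between 0.751 and 1.9 times that mean. Of the 9 members, 4 were more than 2 times as high as in both other M0 libraries, where 5.03% of 15157 rows were. Of genes picked after their values were seen, the classical pathway protease gene C1s1 (2.92 FPKM there, 0.0209 and 0.0182 in replicates 1 and 2), the C1 inhibitor gene Serping1 (7.04 against 0.0794 and 0.138) and C4b (0.973 against 0.0291 and 0) were also higher in that library. All 5 stromal markers were higher there too, with Col1a1 at 123 FPKM, and their part in these values was not tested. In bulk RNA, more cells of a type and more RNA per cell cannot be told apart.

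The second question of the design was whether PBM altered these genes in M1 macrophages. None of the 8 members with enough signal to test passed the study's thresholds in limma (unadjusted p up to 0.05 together with a log2 fold change of 1 or more in size), and their values in M1 and M1 + PBM overlapped for every gene (plot of changes with PBM). Among all rows, 8.51% were higher and 2.52% lower in M1 + PBM without overlap. Over all 12238 rows tested, 0.261% passed, 3 of them higher and 29 lower in M1 + PBM. The study reported many more genes at these thresholds, most of them higher with PBM. Its methods do not name the test behind that count. No member had an adjusted p under 0.05, a mark that 0.00817% of all rows reached, and none had an unadjusted p of at most 0.05, as 4.44% of all rows had. The log2 fold changes of 4 members were positive and of 4 negative, with a median of -0.017 against 0.058 over all rows. Of all rows tested, 8026 were positive and 4212 negative. C5ar2 fell below the minimum of 1 FPKM in 3 libraries and entered no fit. Its means of 0.0138 and 0.0261 FPKM had a two-sided exact permutation p of 0.3, where 3 libraries against 3 cannot go below 0.1. The study describes the sequencing experiment as independently repeated, but the labels do not tie the libraries to separate cultures or animals, so p-values measure the spread between these libraries, which may be partly technical.

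**Figure D3:**
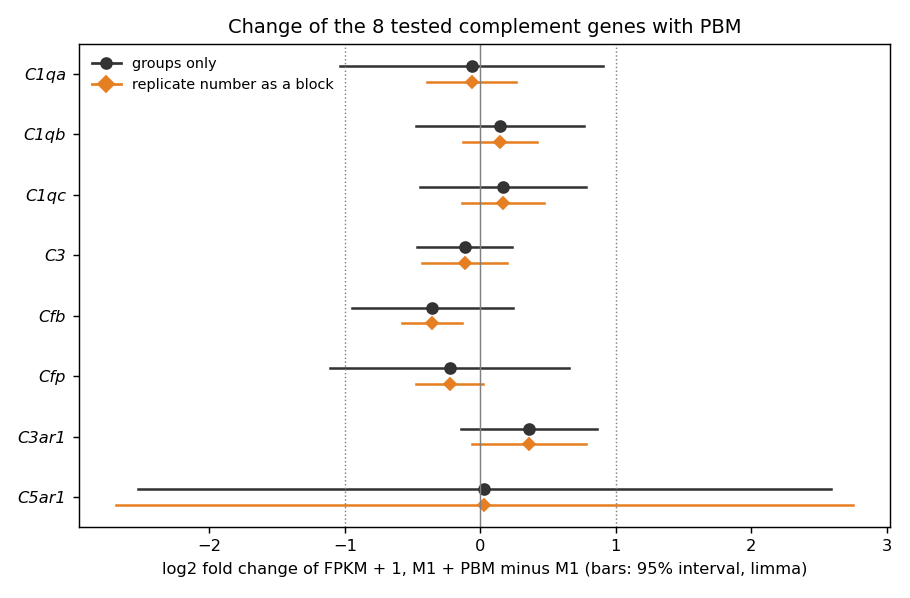
Log2 fold change of FPKM + 1 from M1 to M1 + PBM for the 8 tested members, with 95% intervals from limma for the fit on groups only (black circles) and the fit blocked by replicate number (orange diamonds); dotted lines mark a log2 fold change of 1 in size. The intervals of the fit on groups only all include 0, and that of Cfb excludes 0 with the block.

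The precision differed among members and set what could be seen. For C3 the log2 fold change was -0.11 ± 0.15 (SE, n = 3 per group), with a 95% interval from -0.46 to 0.23 (limma adjusted p = 0.905). The interval excluded a change of 1 log2 unit in either direction. The same held for C1qb, at 0.15 with an interval from -0.47 to 0.77 (limma adjusted p = 0.934), and for C1qc, at 0.17 with an interval from -0.44 to 0.78 (limma adjusted p = 0.921). C1qa had a similar estimate of -0.06, but its wider interval, from -1.03 to 0.90, reached past 1 log2 unit (limma adjusted p = 0.977). For Cfp the estimate was -0.23 with an interval from -1.11 to 0.65 (limma adjusted p = 0.927). C5ar1 could not be resolved at all, with an estimate of 0.03 ± 1.06 (SE) and an interval from -2.53 to 2.59 (limma adjusted p = 0.995). Without M1 + PBM replicate 2 its estimate was -1.11, and it was not called in that fit either. Without M1 replicate 2, the library with hepatocyte transcripts, the estimates were -0.25 for C3 and -0.40 for Cfb, and neither was called. The part of those transcripts in the values was not tested.

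Cfb and C3ar1 had the largest changes relative to their error. Cfb was lower in M1 + PBM by a log2 fold change of -0.36 ± 0.25 (SE; 95% interval -0.95 to 0.24; limma p = 0.197, adjusted p = 0.9; two-sided exact permutation p = 0.5). Deviations from the group mean correlated at 0.157, 0.469 and 0.462 between libraries with the same replicate number. The labels do not state that these numbers pair the libraries. The pairing was taken from the same expression values that the blocked fit uses. Within these assumed pairs Cfb was lower with PBM by log2 changes of -0.40, -0.21 and -0.45. Blocked by replicate number, the same estimate had an SE of 0.086, an interval from -0.58 to -0.13 and an unadjusted limma p of 0.00985, but an adjusted p of 0.577. In that fit 8.07% of all rows had an unadjusted p of at most 0.05, and 3.24% had one with a lower level in M1 + PBM. Being lower in all 3 pairs was shared by 10.1% of all rows. Cfp was also lower in each pair, by log2 changes of -0.42, -0.08 and -0.18 (limma with the block, adjusted p = 0.577).

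C3ar1 was higher in M1 + PBM by 0.36 ± 0.21 (SE; 95% interval -0.14 to 0.86; limma p = 0.132, adjusted p = 0.9; two-sided exact permutation p = 0.2). It was higher in each pair, by 0.80, 0.12 and 0.15, as 25.5% of all rows were, and replicate 1 held most of the difference. Its unadjusted limma p was 0.0439 after quantile normalization and 0.0276 without M1 replicate 3, with log2 fold changes of 0.44 and 0.54, below the threshold on fold.

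Around the members, 44 further complement genes were followed, covering the proteases, lectins, terminal components, regulators and other receptors. Of these, 27 stayed under 1 FPKM in all 9 libraries, among them the terminal component genes Hc (which encodes C5), C6, C7, C8a, C8b, C8g and C9, the factor D gene Cfd and the factor I gene Cfi. Those 9 genes were chosen after their values were seen. The classical pathway protease gene C1ra and its relative C1rl were higher in M1 than in M0 (plot of other complement genes). C1ra had 1.14, 0.704 and 4.81 FPKM in M0, 8.94, 7.85 and 8.42 in M1, and 10.0, 7.82 and 10.3 in M1 + PBM. C1rl had 0.277, 0.44 and 0.989 FPKM in M0, 4.4, 3.55 and 2.84 in M1, and 5.07, 3.3 and 4.23 in M1 + PBM. Neither gene overlapped between M0 and the other groups. The ratio of M1 to M0 was 3.79 for C1ra and 6.32 for C1rl, or 9.1 and 10.03 without M0 replicate 3. For M1 + PBM it was 4.23 and 7.4, or 10.2 and 11.7 without that library. C2, the classical pathway counterpart of Cfb, had 0.227, 0.17 and 1.36 FPKM in M0, and means of 1.32 in M1 and 1.12 in M1 + PBM. It overlapped between M0 and the stimulated groups only through M0 replicate 3. The ratios to the M0 mean were 2.25 for M1 and 1.92 for M1 + PBM, and without that library they were 6.64 and 5.65, with no overlap.

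Lower levels in M1 than in M0 were seen for Cd93 and C1qbp. Cd93, a cell surface protein first described as a C1q receptor, had 89.5, 106 and 108 FPKM in M0 and 14.2, 13.6 and 14.1 in M1. The C1q-binding protein gene C1qbp had a mean of 11.8 ± 2.74 FPKM in M0 and 4.39 ± 1.91 in M1. In both genes all M0 values were above all M1 values. Of the 13 list genes kept, 2 (C1ra and C1rl) were higher in M1 without overlap and by at least 1 log2 unit, and Cd93 and C1qbp were lower by the same criteria, against the 7.81% and 13.7% of all rows given above. The integrin chain genes of complement receptors 3 and 4 had means in M0 and M1 of 349 and 261 FPKM for the shared chain Itgb2, 52.1 and 72.6 for Itgam, and 59.8 and 16.8 for Itgax. All 3 overlapped between M0 and M1, but Itgb2 and Itgax did so only through M0 replicate 3, at 261 and 19.8 FPKM. Without it both were lower in M1 with no overlap, at 0.666 and 0.211 times the M0 mean, and lower in M1 + PBM, at 0.672 and 0.19 times. With all M0 libraries, 50.6% of all rows were lower in M1 without overlap and 46.2% in M1 + PBM. The log2 difference of Itgb2 was then -0.39 in M1 and -0.38 in M1 + PBM. These lay near the medians of -0.34 and -0.27 over all rows. Over the scalings, the sign for Itgb2 turned, from -0.69 to 0.11 in M1 and -0.58 to 0.03 in M1 + PBM. The ficolin gene Fcna had means of 3.87 and 1.83 FPKM without overlap, and the regulator gene Cr1l had 4.4 and 4.12 with overlap.

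**Figure D4:**
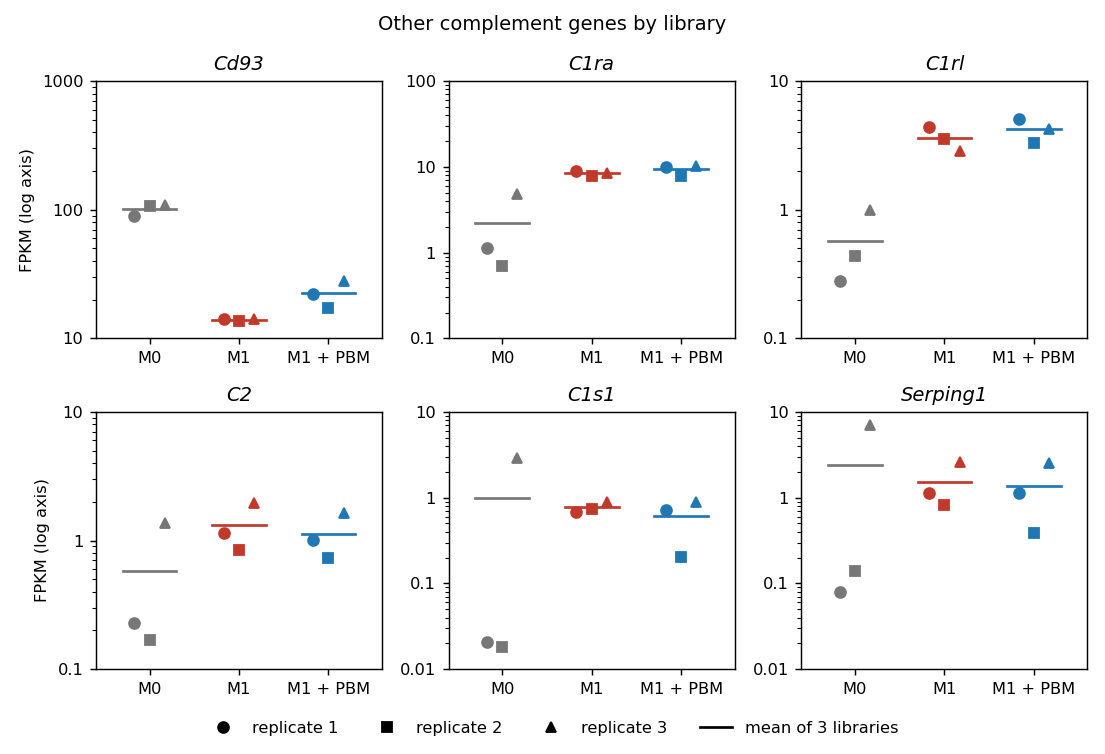
FPKM of 6 other complement genes in each library on log axes, with symbols for the replicate number and a line at the mean of 3 libraries. Cd93 is lower and C1ra and C1rl higher in all M1 than in all M0 libraries, and in M0 the values of C1s1 and Serping1 are high in replicate 3 only.

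Among the 11 list genes tested for PBM, 9 had positive and 2 negative log2 fold changes, with a median of 0.11 against 0.058 over all rows, and none passed the study's thresholds. Of the 12238 rows tested, 8026 were positive and 4212 negative. Cd93 alone had an unadjusted limma p of at most 0.05, as 4.44% of all rows had. It read 22.0, 17.2 and 28.1 FPKM in M1 + PBM, above all 3 M1 values, as 8.51% of all rows were. Its log2 fold change was 0.62 ± 0.17 (SE; 95% interval 0.20 to 1.04; limma p = 0.0105, adjusted p = 0.9; two-sided exact permutation p = 0.1, the smallest possible). Its M1 + PBM values stayed far below those of M0. The other 5 genes with the lowest p were Fcna, C1ra, C1rl, Cr1l and C2, whose log2 fold changes lay between -0.12 and 0.18 with limma p from 0.31 to 0.615.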

How the data were processed

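Values of FPKM were deposited by the authors in 2 tables, 1 for M0 and 1 for M1 and M1 + PBM. The paper's methods name HiSeq sequencing of mRNA and Cufflinks for the expression values, and per the labels the libraries kept strand. The submitters' processing notes name Bowtie 0.12.2 and mm9, while 55154 of 55335 Ensembl identifiers matched GENCODE release M21, so no gene positions were taken from the files. FPKM steps gave estimated depths of 30780000 to 42060000 fragments per library. Only 31.6% to 34.8% of low values were whole within 0.05, where an even spread gives 10%, so no reads were recovered. Fragment numbers are upper estimates from the longest transcript, and the floor of 3 fragments covers counting error only. The summed FPKM per library was 380483 to 425219.

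The effect of PBM in M1 macrophages was tested with limma 3.58.1 in R 4.3.3 (lmFit, eBayes with trend, Benjamini-Hochberg adjustment) on log2(FPKM + 1), over the 12238 rows that reached 1 FPKM in 3 or more of the 6 libraries. A fold change on this scale understates changes of low genes. Single genes also had exact permutation tests. On simulated data for this comparison, with 200 of 11824 genes changed, 97.5% were recovered by p and fold and 88.5% by adjusted p, and 48 unchanged genes were called by p and fold. Every change put in was larger than the threshold on fold, in genes above a minimum level and with independent noise. These shares therefore do not apply to changes as small as the estimates of the members. Deviations from the group mean correlated between same-numbered libraries (r of 0.157, 0.469 and 0.462) and from -0.491 to 0.0328 between others, so the numbers were taken to pair the libraries and a second fit took the number as a block.

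Members and lists were chosen with earlier results of these data known. Beside the members, the list genes named were the 6 with the lowest p and the 6 with the highest mean FPKM. Genes named in other ways are marked in the text. The genes of most similar pattern were the 3 rows with the highest Pearson correlation to C1qb, C3 and C5ar1. The alternatives tried were quantile normalization, median-of-ratios scaling, a pseudocount of 0.1, a minimum mean of 5 FPKM or none, the block, eBayes with no trend, the same FPKM sum per library (M0 comparisons) and leaving out each library. Marker lists of dendritic, lymphoid and erythroid cells summed to at most 1.1, 0.549 and 1.04 FPKM in any library. Some results of the list are not reported here.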

Additional observations from a re-analysis of the deposited data

How the results depend on the processing

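No member and no other complement gene passed the thresholds on p and fold between M1 + PBM and M1 under any alternative. Over all rows the count of 32 became 75 with a pseudocount of 0.1 and lay between 27 and 89 when 1 library was left out, at 89 without M1 + PBM replicate 2 and 67 without M1 replicate 2; the cause was not tested. The replicate block moved this count to 45, changed the side of the p threshold for Cfb alone among the genes named, and changed no other call. C5ar1 turned to -0.0013 with a pseudocount of 0.1 and -0.044 with median-of-ratios scaling, and Itgb2 to -0.067 with that scaling. With 1 library left out, log2 fold changes changed sign for C1qa (-0.34 to 0.35), C1qb (-0.0089 to 0.41), Cfp (-0.57 to 0.046), C5ar1 (-1.11 to 0.74), C2 (-0.29 to 0.073), Cr1l (-0.048 to 0.27), Itgam (-0.15 to 0.61), Itgax (-0.57 to 0.81), Itgb2 (-0.0497 to 0.0754) and C1qbp (-0.21 to 0.33). None of these was called. Those of C1qc (0.025 to 0.42), C3 (-0.25 to -0.026), Cfb (-0.52 to -0.16) and C3ar1 (0.21 to 0.54) kept their sign. With 1 library left out, between 2 and 3 members differed from M0 in either direction without overlap and by at least 1 log2 unit. This held for M1 and for M1 + PBM. With all libraries, 7.81% of all rows were higher and 13.7% lower in M1 by these criteria, and 7.13% and 10.3% in M1 + PBM. These shares were not computed with a library left out. Beside C3 and Cfb, the log2 difference of C5ar1 ranged from -1.88 to 0.023 in M1 and from -2.28 to 0.053 in M1 + PBM. Its positive values came without M0 replicate 3, so its sign rested on single libraries. That of Cfp ranged from 0.54 to 1.17 in M1 and from 0.31 to 0.91 in M1 + PBM. Leaving M0 replicate 3 out moved the C3 difference from 4.56 to 5.52 and the Cfb difference from 7.72 to 8.24 log2 units. With 3 libraries a group, C5ar2 and changes of C5ar1 were beyond what spread and depth could show.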

Other observations

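Over the 6 libraries of M1 and M1 + PBM, the rows whose log2(FPKM + 1) was most like that of C1qb were Cd72 (Pearson r = 0.998), Tbl1x (0.995) and Plekha2 (0.995). For C3 they were Gm23302 (0.984), Smap1 (0.982) and Cp (0.978), and for C5ar1 Rnf19a (0.992), Tlr7 (0.983) and Siah2 (0.974). These are the highest of 12238 rows over 6 points that share libraries and replicate numbers, and are given as a description.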
